A study of Mus musculus with 24 samples.

Results

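The RNA that an anti-m6A antibody still brought down from Mettl3 knockout (Mettl3 KO) mouse embryonic stem (ES) cells was compared with the input RNA of the same cells. The comparison was taken by its labels and holds 4 of the 24 libraries of the series, input 1 and 2 and m6A immunoprecipitation (IP) 1 and 2 of the line Mettl3 KO. Its genotype was Rosa26 BirA-V5, Cre-ERT2, Mettl3 KO, and the control line RBC carried the same Rosa26 BirA-V5 and Cre-ERT2 alleles without the knockout, both on a 129/Sv x C57Bl6 background. Mettl3 KO was 1 clone (2c4d) obtained from another study, so that a trait of the clone and an effect of the knockout cannot be told apart, and its allele was not described in the sources used here. The wild type line WT26 and the Mettl14 KO line made from it (1 clone, A10) were profiled in the same way, with 2 inputs and 2 IPs each. The ES cells were grown with LIF and serum replacement on gelatin, without treatment, and 8 further libraries held nuclear RNA-seq of the 4 lines.

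N6-methyladenosine (m6A) is the most frequent internal base modification of mammalian mRNA, and most of it is written cotranscriptionally by the heterodimer of METTL3, the catalytic subunit, and METTL14, together with adaptors such as WTAP, VIRMA, ZC3H13 and RBM15. The sites lie in a short consensus around GGACT and collect in long internal exons and near stop codons, where YTH proteins read them and direct the decay of the mRNA. Other enzymes make m6A at single sites, among them METTL16 in the MAT2A mRNA and the U6 snRNA, and the antibody also binds related modified adenosines such as m6Am next to the mRNA cap. In methylated RNA immunoprecipitation (MeRIP) a transcript is called enriched when its share of the IP exceeds its share of the input, so every value is relative to the other RNAs of the same tube.

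To show what the consensus looks like in transcripts that the results turn on, the GGACT nearest to the stop codon is given for each in capitals with 10 bases on either side (GRCm38 genome, read on the strand of the gene). Sox2 and Zc3h13 were still enriched in the Mettl3 KO IP, whereas Klf4, Nanog, Wtap and Zfp36l2 were enriched in RBC and were not called in Mettl3 KO. These groups part by call and not always by size. In a fit with the pairs of input and IP as a block, the log2 fold change in Mettl3 KO was 1.07 for Klf4 and 1.11 for Zc3h13. The letters GGACT are in 80.9% of the longest transcripts of 21396 tested genes searched on the transcript strand, so the letters by themselves set no group apart.
Sox2, chr3:34651371-34651395, plus strand, 3′ UTR: tgtgagggctGGACTgcgaactgga
Zc3h13, chr14:75339423-75339447, plus strand, coding sequence: gtttcagacgGGACTctgcaatccg
Klf4, chr4:55527792-55527816, minus strand, 3′ UTR: gaacatgcccGGACTtacaaaatgc
Nanog, chr6:122713386-122713410, plus strand, coding sequence: acttcggggaGGACTttctgcagcc
Wtap, chr17:12975050-12975074, minus strand, 3′ UTR: tgatgccgtcGGACTattccgaaga
Zfp36l2, chr17:84185639-84185663, minus strand, 3′ UTR: ccgagcacttGGACTcgaactctgc
The mRNA of Mat2a, which encodes the S-adenosylmethionine synthetase of these cells, is the known METTL16 substrate. Its 3′ UTR holds TACAGAGAA, a METTL16 site, 5 times, more often than any other of the 21396 transcripts, of which 4.48% hold it at all. The 5 sites, minus strand, with the motif in capitals, follow in transcript order.
Mat2a, chr6:72434235-72434263: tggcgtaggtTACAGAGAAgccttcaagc
Mat2a, chr6:72433451-72433479: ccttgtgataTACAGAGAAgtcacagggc
Mat2a, chr6:72433272-72433300: ctggtgtagcTACAGAGAAaccagcttcc
Mat2a, chr6:72433157-72433185: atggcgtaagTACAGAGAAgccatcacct
Mat2a, chr6:72432938-72432966: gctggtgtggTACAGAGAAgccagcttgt

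The libraries held 20797521 and 11247530 counts in the Mettl3 KO inputs and 22510083 and 13198951 in its IPs, and between 9394163 and 28441282 over all 16 MeRIP libraries. Mettl3 itself had 553 and 474 normalized counts (counts divided by the size factor of the library) in the Mettl3 KO inputs against 537 and 538 in the RBC inputs. The count covers the whole gene, which overlaps Tox4 on the other strand, and does not check a small lesion. ES cell markers summed to 11368 and 10451 normalized counts in the Mettl3 KO inputs and to 18413 and 17106 in the RBC inputs, while the summed fibroblast, primitive endoderm and mesoderm markers stayed between 27.3 and 114 in all 4, with Lum and Dcn at 0. Neural markers summed to between 544 and 709. In such bulk samples fewer cells of a type and less RNA per cell cannot be told apart. The IP separated transcripts less in Mettl3 KO than elsewhere: the SD of the log2 ratio of IP to input over 13662 features was 0.712 and 0.947 in its pairs 1 and 2, against 0.812 and 1.40 in RBC, 0.849 and 1.41 in Mettl14 KO and 0.897 and 1.43 in WT26. In all 4 lines pair 2 had the wider spread. Values are on the scale of size factors set by all features, and scaling by library size or by repeats alone moved every log2 ratio of IP to input in Mettl3 KO up by 0.381 or 0.723, and in RBC by 0.460 or 1.22.

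Many transcripts still came down in the IP of the knockout, and fewer passed the thresholds than in each of the other 3 lines. Of 22621 features tested (21524 genes and 1097 repeat subfamilies), 575 (2.54%) were enriched in the Mettl3 KO IP and 420 (1.86%) were depleted, in edgeR's quasi-likelihood test with thresholds of 0.05 for the adjusted p and 1 for the size of the log2 fold change. RBC had 3030 enriched (13.4%) and 2501 depleted features (11.1%), Mettl14 KO had 2692 (11.9%) and 2241 (9.91%), and WT26 had 3272 (14.5%) and 3064 (13.5%). The enriched features of Mettl3 KO were 574 genes and 1 repeat subfamily, and the depleted ones 394 genes and 26 subfamilies. At the edge of the fold threshold, Psma7 had a log2 fold change of 1.01 and was counted and Hmg20b had 0.99 and was not. With 2 libraries a side these counts rest on each library: 11 features were enriched and 32 depleted without IP 2, 15 and 41 without input 1, and 16 and 89 without input 2. In RBC 1 feature was enriched without input 2 and 37 without IP 2. All 56 called features named below kept their sign without any 1 of the 4 libraries. Most of them lost their call in at least 1 of these fits. The kept signs were favoured in advance, since a call needs a log2 fold change beyond 1. Many of the 56 were also picked for input and IP libraries that did not overlap. GSAT_MM and SYNREP_MM, named without a call, did change sign, as given below. The split between enriched and depleted moved with the scaling, to 2525 and 266 by library size and to 618 and 80 with size factors from repeats. DESeq2's Wald test called 1117 features enriched and 728 depleted.

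Of the 575 enriched features 352 (61.2%) were enriched in RBC too, which is 11.6% of the 3030 of RBC, 312 were enriched in all 3 other lines, and 162 in none of them. Of the 420 depleted features 361 (86.0%) were depleted in RBC too, 14.4% of the 2501 of RBC, and 34 were depleted in no other line. The lines share no library, but IPs with the same number deviated together (r of 0.598 to 0.806 between lines), so these overlaps are not independent.

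**Figure D1:**
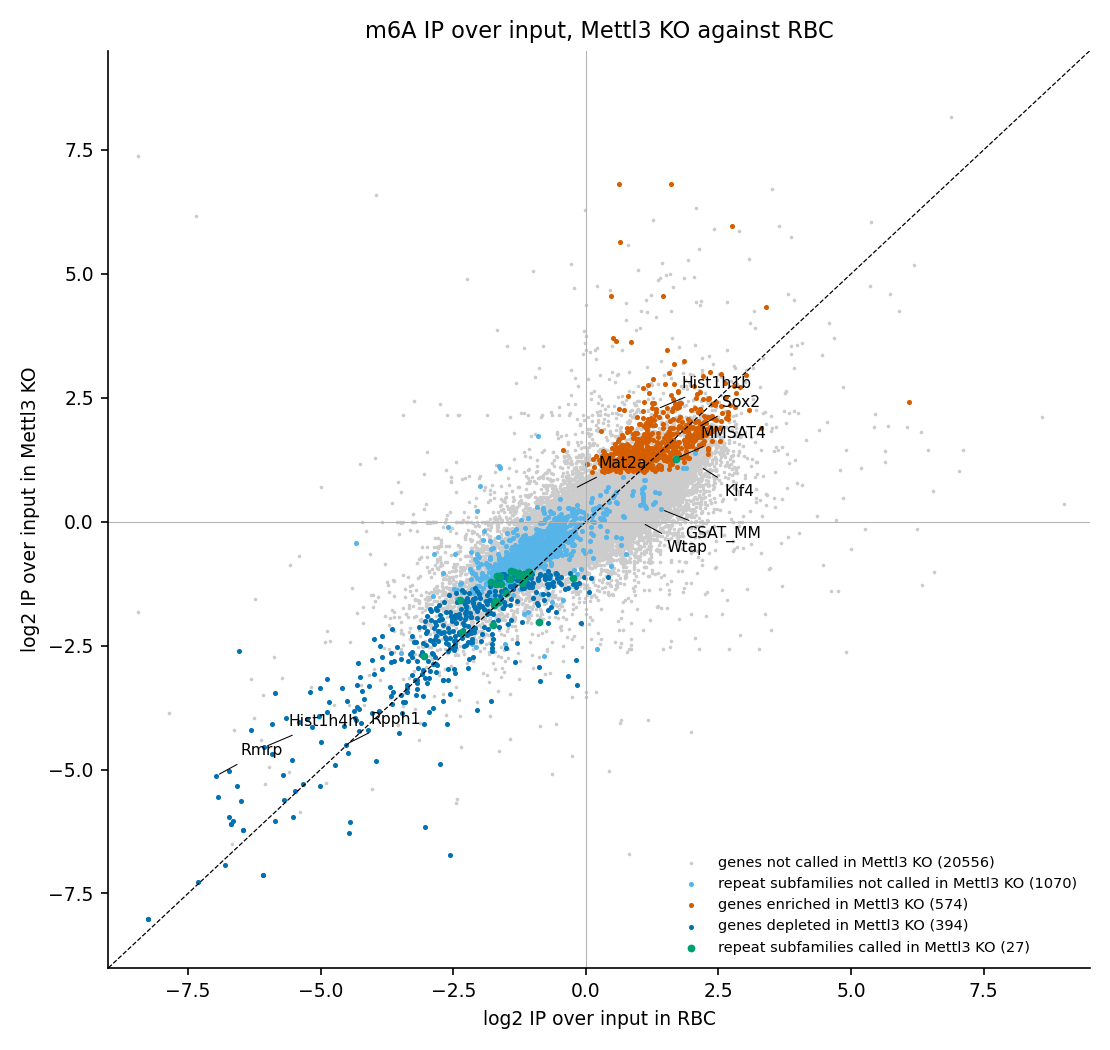
Log2 fold change of IP over input in RBC (x axis) against that in Mettl3 KO (y axis) for all 22621 tested features, from the model of all 16 libraries. Each point is a gene or repeat subfamily, coloured by its call in Mettl3 KO, and the dashed line marks equal values. The 574 enriched genes sit at the upper end of the cloud, with Sox2 and Hist1h1b among them, and the cloud is flatter than the line, so that Klf4, Wtap and GSAT_MM lie below it and Rmrp and Hist1h4h above it.

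The 12 genes with the largest fold change among the well-covered ones ranged from 111 to 3076 bases in their longest transcript, and all 12 were also enriched in RBC, Mettl14 KO and WT26. Hps6, which encodes a subunit of the BLOC-2 complex for lysosome-related organelles, had 31.8 and 17.7 normalized counts in the inputs and 85.9 and 321 in the IPs, a log2 fold change of 2.98 ± 0.67 (SE, n = 2 libraries a side as for all values of this line). Its adjusted p was 0.0277, and 0.065 with the pairs of input and IP as a block, and it shares its strand with 4930505N22Rik. Bloc1s4, a subunit of the related BLOC-1 complex and also a single-exon gene, went from 39.96 and 28.9 to 168 and 303 normalized counts (log2 fold change 2.75 ± 0.51, adjusted p = 0.0124). For both genes each IP library lay above each input library, and IP 2 was the higher of the IPs. In RBC their log2 fold changes were 2.55 and 2.80. The single-exon gene Eid2, an inhibitor of EP300 in differentiation, had a log2 fold change of 2.599 (adjusted p = 0.0324, with the block 0.0503), and Arl4d, a small GTPase whose longest transcript has 1382 bases, had 2.62 (adjusted p = 0.0228). Mrm2, a methyltransferase of mitochondrial rRNA, reached 2.42 (adjusted p = 0.0205), and the stress-induced chromatin factor Nupr1 reached 2.395 (adjusted p = 0.023). Tceal7, Tagap and Gm18336 completed the protein-coding genes, at 2.56, 2.71 and 2.49, and only Gm18336 of these lost its call with the block (adjusted p 0.0481 without and 0.0562 with it).

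The other 3 of the 12 were short annotations inside or opposite other genes. BC002163, a processed pseudogene of 319 bases in Zbtb20 on the same strand, had 49.95 and 38.5 normalized counts in the inputs and 258 and 360.1 in the IPs (log2 fold change 2.79 ± 0.37, adjusted p = 0.00238). Gm44297, annotated as a miRNA, lies opposite the histone gene Hist1h2af and had a log2 fold change of 2.79 (adjusted p = 0.0137). Gm24157, also annotated as a miRNA, overlaps Ppp2ca on the other strand and had 2.62 (adjusted p = 0.0116). Whether reads were assigned by strand was not given in the sources used here, so reads of these genes and of their partners cannot be told apart. In all, 8 of the 12 genes overlapped another annotation and 7 had 1 exon.

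Replication-dependent histone genes, whose short intronless mRNAs end in a stem-loop in place of a poly(A) tail, moved in both directions in the Mettl3 KO IP. Of 64 tested genes of 68 in the table, 14 were enriched and 7 depleted, against 6 and 14 in RBC, with a median log2 fold change of 0.23 against -0.39 (all features -0.014 and 0.021). Of all features 2.54% were enriched and 1.86% depleted in Mettl3 KO, and 13.4% and 11.1% in RBC. By histone, 5 of 6 genes of the linker histone H1 were enriched (median 2.12), as were 2 of 18 of H2A and 7 of 16 of H2B, where 1 was depleted, whereas 1 of 12 of H3 and 5 of 12 of H4 were depleted and none enriched. At an unadjusted p under 0.05, 2 of the H3 and 0 of the H4 genes were higher in the IP, and DESeq2 called 0 and 0 of them enriched.

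Among the linker histones, Hist1h1b had 570.4 and 472 normalized counts in the inputs and 1793 and 3238 in the IPs (log2 fold change 2.27 ± 0.34, adjusted p = 0.00482). Hist1h1c went from 956 and 954 to 2984 and 7023 (2.39 ± 0.41, adjusted p = 0.00898) and Hist1h1d from 973 and 843 to 3284 and 3829 (1.97 ± 0.34, adjusted p = 0.00864). For all 3 genes both IPs exceeded both inputs, and IP 2 was the higher. Hist1h1t, the testis form, was called from few counts, 1.82 and 3.21 in the inputs and 18.9 and 18.7 in the IPs (adjusted p = 0.0455, with the block 0.0718). Of the H2B genes, Hist1h2bn had a log2 fold change of 2.01, Hist2h2bb 1.62, Hist1h2bg 1.58 and Hist1h2bb 1.33, and Hist1h2bk was depleted at -1.74 (adjusted p = 0.00985). Hist1h2af, at 2.29 (adjusted p = 0.0135), and Hist1h2ab, at 1.55 (adjusted p = 0.022), were the 2 enriched H2A genes, and both overlap a short annotation on the other strand. Without IP 2, 0 histone genes were called enriched (edgeR) and 3 depleted, without either input 1 was enriched, and without IP 1 12 were.

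Of the 12 H4 genes the highest had a log2 fold change of 0.23. Hist1h4h fell from 799 and 1076 normalized counts in the inputs to 36.4 and 43.7 in the IPs, a log2 fold change of -4.55 ± 0.57 (adjusted p = 0.00233). Hist1h4n had a log2 fold change of -3.98, Hist4h4 of -2.84 and Hist1h4c of -2.51, and the H3 gene Hist1h3e had -3.25 (adjusted p = 0.00283). Each of these mRNAs was depleted in RBC as well, where Hist1h4h was at -6.07 and Hist1h4c at -3.87. Histone genes of a family are near-identical copies, and how their shared reads were split is uncertain for single genes.

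The mRNAs of cytoplasmic ribosomal proteins, short and abundant transcripts, were the largest listed group among the enriched genes. Of 87 tested genes and processed copies, 19 were enriched in Mettl3 KO (21.8%, against 2.54% of all features) and 0 were depleted, while 5 were enriched in RBC, 4 in Mettl14 KO and 7 in WT26. Their median log2 fold change was 0.76 in Mettl3 KO and 0.19 in RBC, and 43 had an unadjusted p under 0.05 with the IP higher and 0 with the IP lower. DESeq2 called 27 of them enriched and 0 depleted. Rpl36, of the large subunit, had 718 and 687 normalized counts in the inputs and 2206 and 3193 in the IPs (log2 fold change 1.94 ± 0.26, adjusted p = 0.00238). Rpl38 went from 761 and 706 to 2599 and 2406 (1.77 ± 0.39, adjusted p = 0.0259). For both genes each IP library stood well above each input library. The small subunit gene Rps27 was at 1.55 and Rpl41, the shortest ribosomal protein, at 1.48, and the copies Rps3a3 and Rps4l, which share sequence with their parent genes, were both at 1.89. The whole group ranged from -0.34 to 1.94. Without IP 2, input 1 or input 2 a single member, Rpl36, was called, and without IP 1 12 were.

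Length went with enrichment in the knockout over all protein-coding genes, without a test, since genes are not replicates. The 466 enriched coding genes of Mettl3 KO had a median longest transcript of 1564.5 bases, against 3323 for all tested coding genes and 3164 for those enriched in RBC. By length of the longest transcript, 10.2% of 49 coding genes of 200 to 400 bases were enriched in Mettl3 KO, and 19.1% of 377 of 400 to 800 bases, 9.84% of 1656 of 800 to 1600 bases, 2.91% of 4956 of 1600 to 3200 bases, 1.14% of 5967 of 3200 to 6400 bases and 0.790% of 1773 longer ones. In RBC the same bins gave 12.2%, 16.7%, 19.6%, 17.6%, 15.9% and 16.1%. Above 400 bases each longer bin thus held a smaller enriched share in Mettl3 KO, while the shares in RBC stayed between 15.9% and 19.6%. The median log2 fold change was lower in the longest coding genes in both lines. From 400 to 800 bases to above 6400 bases it went from 0.73 to -0.054 in Mettl3 KO and from 0.52 to 0.19 in RBC. Genes with 1 exon made up 15.0% of the enriched coding genes of Mettl3 KO, 6.45% of all tested coding genes and 11.4% of those enriched in RBC, and their part in the relation was not tested.

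**Figure D2:**
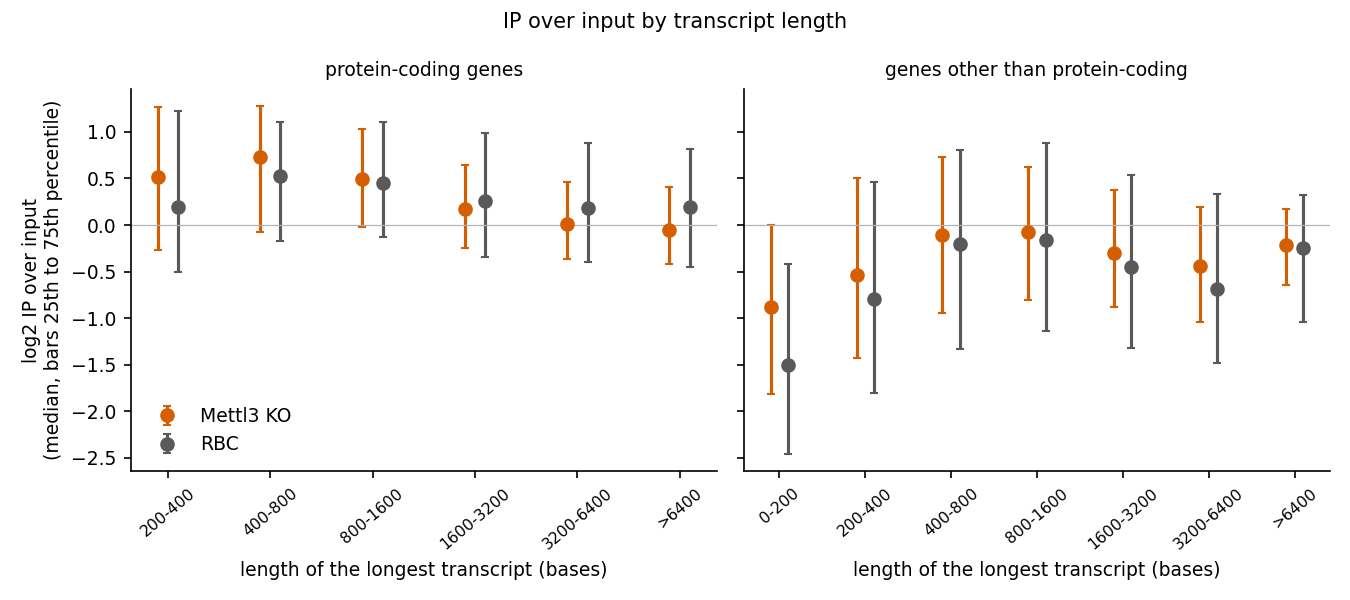
Median log2 fold change of IP over input (y axis) by the length of the longest transcript in bases (x axis), for protein-coding genes and for other genes, in Mettl3 KO and RBC. Bars span the 25th to 75th percentile of genes. The median of coding genes went from 0.73 at 400 to 800 bases to -0.054 above 6400 bases in Mettl3 KO and from 0.52 to 0.19 in RBC. Other genes of at most 200 bases lay lowest in both lines.

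Small structured noncoding RNAs led the features depleted from the IP of the knockout. Of the 406 tested snoRNA genes, which guide modification and cleavage of rRNA, 98 were depleted (24.1%, against 1.86% of all features) and 1 was enriched. In RBC 233 of them were depleted (11.1% of all features), with medians of -1.32 in Mettl3 KO and -1.89 in RBC on the log2 scale. Of 26 scaRNAs 8 were depleted in Mettl3 KO, and of 191 snRNA genes 12. The count of snoRNAs was 17 without IP 2, 19 without input 1, 57 without input 2 and 48 without IP 1. The U3 snoRNA, needed for pre-rRNA cleavage, headed the list. Rnu3a, listed under a pair of overlapping identifiers with identical counts, had 5820.2 and 1105 normalized counts in the inputs and 6.51 and 21.9 in the IPs (log2 fold change -8.02 ± 1.06, adjusted p = 0.00238). Its near-identical copies Rnu3b4, Rnu3b3 and Rnu3b2, within Tex14, were at -7.12, -6.22 and -6.09, and Gm22422, a snoRNA annotation in Trmt10c, at -6.92. Without any 1 library these values stayed below 0 but moved, from -9.03 to -6.37 for Rnu3a, -7.00 to -4.28 for Rnu3b3 and -7.65 to -5.30 for Gm22422. Without input 1, the library with the most counts, Rnu3b2 was at -3.15, and without IP 2 Rnu3b2 and Rnu3b4 were at -10.65 and -11.40, where IP 1 held 0 counts and the value depends on the prior count. The call of Rnu3b2 was lost without each of the 4 libraries and with the block (adjusted p 0.0443 without and 0.0549 with it). The reads of these copies cannot be told apart, and input 1 was far above input 2 for Rnu3a.

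Abundant noncoding RNAs of other kinds followed. Rmrp, the RNA of the ribonuclease MRP, had 71009 and 51356 normalized counts in the inputs and 1190.4 and 2301 in the IPs, a log2 fold change of -5.13 ± 0.57 (adjusted p = 0.0017). Ccdc107 on the other strand had nearly the same counts, 70061 and 51261 and 1278 and 2430.0. Rpph1, the RNA of ribonuclease P, fell from 27994 and 35477 to 758 and 2052 (-4.50 ± 0.56, adjusted p = 0.00233). In both RNAs the input and IP libraries were far apart. Terc, the template RNA of telomerase, was at -3.67 (adjusted p = 0.00626), and Rn7sk, which holds the elongation factor P-TEFb inactive, at -2.97 (adjusted p = 0.0306). Of 23 nuclear noncoding RNAs tested, these 4 were depleted and 1, Tsix, was enriched at 1.10 (adjusted p = 0.0349, with the block 0.065), where reads cannot be assigned between Tsix and Xist. The tRNA gene mt-Ts1 was the 1 enriched of 29 mitochondrial RNAs (2.23, adjusted p = 0.0384), and it lies opposite mt-Co1. The call of mt-Ts1 rested on each of the 4 libraries. Among all features 2.54% were enriched and 1.86% depleted in Mettl3 KO, so 1 of 23 and 1 of 29 enriched lay near that share.

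Among the repeats, 1 subfamily was enriched in the knockout. MMSAT4, a satellite that is also found within zinc finger genes, had 35843 and 29009.7 normalized counts in the inputs and 86254 and 70497 in the IPs, a log2 fold change of 1.27 ± 0.31 (adjusted p = 0.0348, with the block 0.0692). In RBC it was at 1.70 (adjusted p = 0.00728). Summed over the 7 tested satellite subfamilies, the Mettl3 KO IP was at a log2 fold change of 1.05 ± 0.32 (SE) with an adjusted p of 0.0634, and RBC at 1.39 with 0.0111. MMSAT4 made up most of this sum, and the median of the 7 subfamilies was 0.26, with 4 of 7 above 0. The adjusted p of the Mettl3 KO sum was 0.000856 in DESeq2. MMSAT4 lost its call without any 1 of the 4 libraries, while its log2 fold change stayed between 1.12 and 1.43.

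The major satellite GSAT_MM, the repeat of mouse pericentromeric heterochromatin, gave no call in the knockout. It had 1695 and 536 normalized counts in the Mettl3 KO inputs and 2071 and 596 in the IPs (log2 fold change 0.26 ± 0.73, adjusted p = 0.859). In RBC it had 1532 and 564 in the inputs and 4097 and 1467 in the IPs (1.41 ± 0.75, adjusted p = 0.161). Replicate 1 was the higher in every group and the input and IP groups overlapped in both lines, whereas within a pair the log2 ratio was 0.29 and 0.15 in Mettl3 KO and 1.42 and 1.38 in RBC. The sign of the group value turned to -0.91 without IP 1 and to -0.35 without input 2. SYNREP_MM had 123 and 99.6 in the inputs and 126 and 52.0 in the IPs, with overlap, and its log2 fold change of -0.30 turned to 0.18 without IP 2. Of 9 tested satellite-like predicted genes around Gm10801, 0 were called in edgeR and in DESeq2, and 0 had an unadjusted p under 0.05.

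Young LINE-1 elements, which are transcribed in ES cells and carry their own promoter, lay above the input in Mettl3 KO without a call. Of the 6 L1Md subfamilies 0 were enriched in Mettl3 KO (2.54% of all features) and 4 in RBC (13.4% of all features). In Mettl3 KO 3 had an unadjusted p under 0.05, and DESeq2 called 1. L1Md_Gf had 3641 and 3462 normalized counts in the inputs and 6089.9 and 12432 in the IPs (1.38 ± 0.40, adjusted p = 0.0599), and L1Md_T 67602 and 74058 and 107904 and 191989.6 (1.08 ± 0.46, adjusted p = 0.157). L1Md_A had 31534 and 33062 in the inputs and 41803 and 55987 in the IPs (0.60 ± 0.40, adjusted p = 0.363). In all 3 subfamilies both IPs exceeded both inputs and IP 2 was the highest library. In RBC their log2 fold changes were 2.06, 1.83 and 1.31, and L1VL1 was at 0.60 in Mettl3 KO and 0.56 in RBC. The other LINE, LTR, SINE and DNA repeats lay mostly below the input.

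Over all 1097 subfamilies the median log2 fold change was -0.68 in Mettl3 KO and -1.15 in RBC, and it became 0.0084 in Mettl3 KO when size factors were taken from the repeats. Depleted subfamilies numbered 5 of 213 DNA transposons, 5 of 158 LINEs, 13 of 645 LTR elements and 0 of 36 SINEs in Mettl3 KO, against 161, 67, 226 and 30 in RBC. Of all features 1.86% were depleted in Mettl3 KO and 11.1% in RBC, so the counts of Mettl3 KO lay near the background of that line. For the SINEs, 10 had an unadjusted p under 0.05 with the IP lower in Mettl3 KO, and DESeq2 called 4. Among subfamilies averaging 50 or more normalized counts, the most depleted were L1M3f, an old LINE, from 117 and 120.4 in the inputs to 37.1 and 19.8 in the IPs (-2.03, adjusted p = 0.0176), MER21-int (-1.67), MamGypLTR1c (-1.63) and UCON31 (-1.60), while L1M2b, ORR1G-int and L1M3a, with fewer counts, were at -2.71, -2.23 and -2.08. Without IP 2, input 1 or input 2 0 subfamilies were called in edgeR in either direction. With the block the last 3 lost their call, at adjusted p of 0.0544, 0.0631 and 0.0534. IAPEz-int, the internal part of an active endogenous retrovirus, had 26185 and 30129 in the inputs and 19611 and 15758 in the IPs (-0.67, adjusted p = 0.145). The 10 IAPEY subfamilies ranged from -1.46 to 0.41 with 0 called in edgeR and in DESeq2 and 2 at an unadjusted p under 0.05. RNERVK23-int at 1.72 (adjusted p = 0.0818) and ORR1A0-int at 1.38 (adjusted p = 0.0559) were the LTR elements with high ratios that missed the threshold.

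Mettl3 KO was then compared with RBC by the difference of their enrichments. This compares relative shares of IP and input between 1 clone and its control line, and not amounts of bound RNA. In the model of the 8 groups edgeR called 0 features higher and 0 lower (0.0% each), with 787 at an unadjusted p under 0.05 and a smallest adjusted p of 0.854, and DESeq2 also called 0. IP libraries with the same number deviated together from their group means, with r between 0.598 and 0.806 over 13662 features for each pairing of lines, so that the spread within a group held a part common to all lines. A paired model, chosen after seeing the data, therefore added a term for each pair of input and IP and let the IP effect differ between the libraries numbered 1 and those numbered 2. For each feature this shift was taken to be the same in all lines, which was not tested. The SD of the log2 ratio in pairs 1 and 2 was 0.712 and 0.947 in Mettl3 KO and 0.812 and 1.40 in RBC. The paired model lowered the biological coefficient of variation from 0.273 to 0.0991 and left 3 residual degrees of freedom in place of 8. In it 1265 features had higher enrichment in Mettl3 KO than in RBC (5.59%) and 1714 had lower (7.58%), and within Mettl3 KO 2078 were enriched (9.19%) and 2118 depleted (9.36%), against 3938 (17.4%) and 3946 (17.4%) in RBC. By library size the difference was higher for 529 features and lower for 2044, and with size factors from repeats for 82 and 6212. The p-values below for differences between lines are from the paired model, and 0 of these differences passed in the model of groups. Klf2, Gbx2, Zfp36l1, Zfp36l2, Wtap, Tug1, Neat1 and L1Md_T were chosen after their values were seen. Their p-values for differences describe these features and do not test them. Over 13648 features with at least 50 normalized counts the difference between the lines was negative in both pairs for 5701, positive in both for 5177 and of opposite sign for 2770. Called enriched in WT26 were 3272 features, of which 929 were lower and 21 higher in Mettl3 KO than in RBC in the paired model. Of the 3064 depleted in WT26 551 were higher and 1 was lower. The WT26 libraries are in the same fit, and their IPs deviated together with those of RBC (r = 0.806). These sets are thus not independent of the difference and do not test it.

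**Figure D3:**
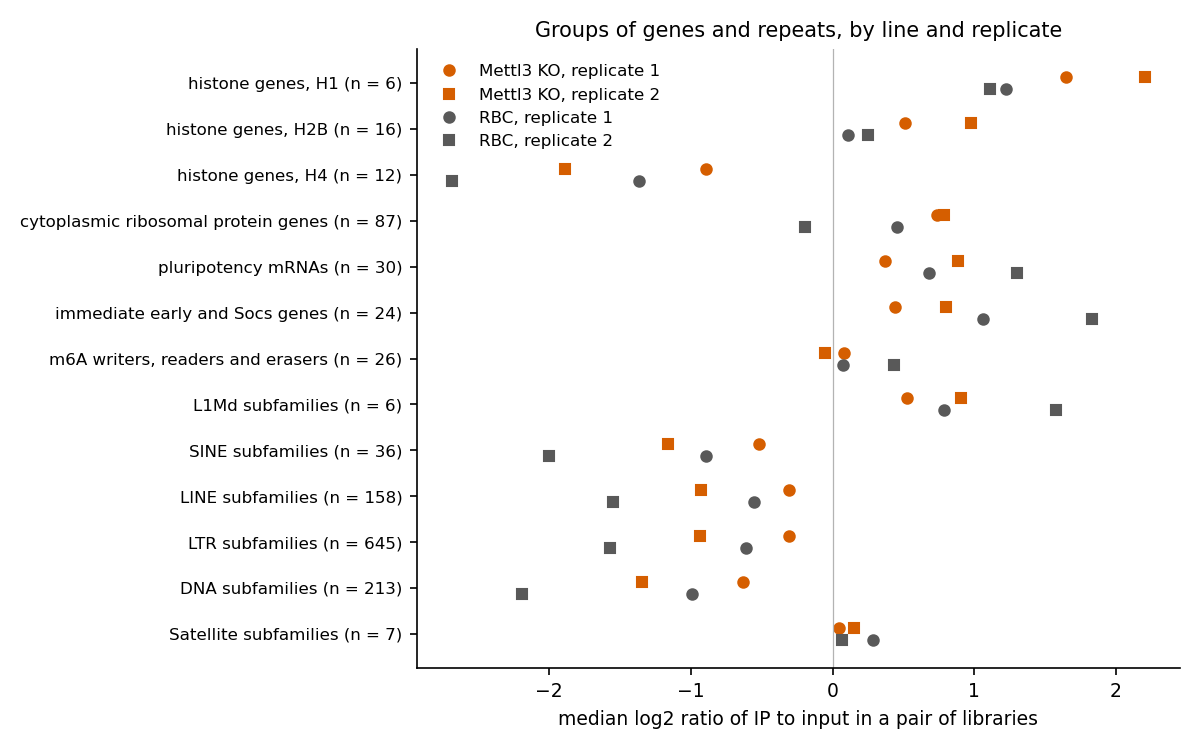
Median log2 ratio of IP to input (x axis) of groups of genes and of repeat subfamilies (rows, n features each) in each pair of libraries of Mettl3 KO and RBC, circles for replicate 1 and squares for replicate 2. Ribosomal protein genes had medians of 0.74 and 0.78 in Mettl3 KO and 0.45 and -0.20 in RBC, and immediate early and Socs genes 0.44 and 0.80 against 1.06 and 1.83.

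Of 30 pluripotency mRNAs, 2 were enriched in Mettl3 KO and 15 in RBC (14 in Mettl14 KO and 15 in WT26), with medians of 0.69 and 1.12. Among all features 2.54% were enriched in Mettl3 KO, 13.4% in RBC, 11.9% in Mettl14 KO and 14.5% in WT26. The paired model put 11 lower and 2, Tfcp2l1 and Dppa5a, higher in Mettl3 KO, against 7.58% and 5.59% of all features. At an unadjusted p under 0.05 these were 16 and 3, and in DESeq2 11 and 2. Klf4, a core factor of naive ES cells, had 1478 and 1437 normalized counts in the Mettl3 KO inputs and 2415 and 3900.5 in the IPs (1.11 ± 0.52, adjusted p = 0.192). In RBC it had 1094 and 1679 in the inputs and 2957 and 9339 in the IPs (2.15 ± 0.53, adjusted p = 0.0138). The IPs lay above the inputs in both lines, by less in Mettl3 KO, and the difference was -0.88 ± 0.17 (adjusted p = 0.00469). In the model of groups the difference was -1.03, and 0.021 without RBC IP 2.

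Nanog, another core factor, had 1105 and 1101 normalized counts in the inputs and 1268 and 1643 in the IPs of Mettl3 KO, and 1384 and 1457 and 2073 and 3889.7 in those of RBC, a difference of enrichment of -0.61 ± 0.17 (adjusted p = 0.0251). Klf2 differed by -0.77 (adjusted p = 0.0146) and Gbx2 by -0.87 (adjusted p = 0.0151). In the model of groups the log2 difference of Klf2 was -0.97, and it turned to 0.19 without RBC IP 2. Sox2 kept its enrichment: it had 877 and 898 normalized counts in the inputs and 2256 and 4342 in the IPs of Mettl3 KO (1.89 ± 0.42, adjusted p = 0.0262, with the block 0.0507). The RBC value was 2.10, and the difference of -0.19 ± 0.17 did not pass (adjusted p = 0.482). Sox2 is a single-exon gene within Sox2ot on the same strand. Nr0b1, the other enriched member, was at 1.65 in Mettl3 KO and 1.58 in RBC (difference 0.10, adjusted p = 0.779).

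Immediate early and Socs genes encode short-lived mRNAs of signal responses. Of 24 tested, 0 were enriched in Mettl3 KO and 12 in RBC, with medians of 0.73 and 1.58. Among all features 2.54% were enriched in Mettl3 KO and 13.4% in RBC, so the 0 lay near the share of Mettl3 KO. In Mettl3 KO 5 had an unadjusted p under 0.05 with the IP higher, and DESeq2 called 3. The paired model put 8 lower in Mettl3 KO and 0 higher, against 7.58% and 5.59% of all features. At an unadjusted p under 0.05 these were 13 and 0, and in DESeq2 7 and 0. Zfp36l2, which binds AU-rich elements and promotes mRNA decay, had 341 and 312 normalized counts in the Mettl3 KO inputs and 374 and 383 in the IPs, and 309 and 307 against 592 and 1344 in RBC. The IPs thus stood well above the inputs in RBC and slightly above them in Mettl3 KO, a difference of -1.30 ± 0.21 (adjusted p = 0.00241). Its relative Zfp36l1 differed by -1.04 (adjusted p = 0.00349), and Fos, Junb, Ier2, Socs2, Socs3 and Socs6 were the other 6.

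Of 26 m6A writers, readers and erasers, 1 was enriched in Mettl3 KO (3.85%, against 2.54% of all features) and 7 in RBC (13.4% of all features). In the paired model 7 were lower and 2, the hnRNPs Hnrnpa2b1 and Hnrnpc, higher, against 7.58% and 5.59% of all features. Wtap, the adaptor that holds the writer in nuclear speckles, had 1157 and 1185 normalized counts in the Mettl3 KO inputs and 1177 and 1139 in the IPs. In RBC it had 1103 and 1282 in the inputs and 1726 and 3217 in the IPs. The 4 Mettl3 KO libraries overlapped and the RBC groups did not, and the difference was -0.995 ± 0.20 (adjusted p = 0.00612). Zc3h13, another adaptor, stayed enriched, from 2329 and 2010.3 to 4808 and 4507 (1.10 ± 0.24, adjusted p = 0.022), with a difference of -0.31 from RBC (adjusted p = 0.218). The noncoding RNAs Tug1, at -0.90 (adjusted p = 0.00393), and Neat1, the scaffold of paraspeckles, at -0.62 (adjusted p = 0.0387), were the 2 of 23 nuclear noncoding RNAs that were lower in Mettl3 KO, and 3, Rmrp, Rn7sk and Gas5, were higher. Tug1 was enriched in RBC, at a log2 fold change of 1.79. Neat1 was not called in either line, at -0.13 in RBC and -0.76 in Mettl3 KO.

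Repeats differed between the lines in the same model, in which 5.59% of all features were higher in Mettl3 KO and 7.58% lower. GSAT_MM had a difference of -1.17 ± 0.18 (adjusted p = 0.00165), L1Md_Gf of -0.75 (adjusted p = 0.00954), L1Md_T of -0.75 (adjusted p = 0.0133) and L1Md_A of -0.69 (adjusted p = 0.0203). The other 3 L1Md subfamilies did not pass, and neither did MMSAT4, at -0.43 ± 0.19 (adjusted p = 0.13), nor IAPEz-int at 0.13 (adjusted p = 0.639). Gm10801 and Gm10800 were the satellite-like predicted genes that were lower, 2 of 9. Of all 1097 subfamilies 305 were higher in Mettl3 KO than in RBC and 20 lower, among them 30 of 36 SINEs, 75 of 213 DNA transposons and 161 of 645 LTR elements. With size factors from repeats, 82 features of any kind were higher in Mettl3 KO and 6212 lower, so the number higher depends on the scaling.

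Ribosomal protein and histone genes moved the other way. For comparison, 5.59% of all features were higher in Mettl3 KO than in RBC in the paired model and 7.58% were lower. In the paired model 52 of 87 ribosomal protein genes were higher in Mettl3 KO than in RBC and 0 lower (73 and 1 at an unadjusted p under 0.05, and 45 and 0 in DESeq2), which became 24 and 0 when scaled by library size and 2 and 2 with size factors from repeats. Rpl36 had 1192 and 1089 normalized counts in the RBC inputs and 2919.8 and 2515 in its IPs, and differed by 0.66 ± 0.21 (adjusted p = 0.0439). The RBC IPs were above the RBC inputs too, by less. Of the 64 histone genes 21 were higher and 0 lower (33 and 1 at an unadjusted p under 0.05, 15 and 0 in DESeq2), 16 and 0 by library size and 4 and 3 with size factors from repeats. Hist1h1b, with 490.1 and 517 in the RBC inputs and 1153 and 1382 in its IPs, differed by 0.87 (adjusted p = 0.0183), and Hist1h1d by 0.94 (adjusted p = 0.015). Hist1h4h, Hist1h4c and Rmrp, depleted in both lines, were less depleted in Mettl3 KO, by 1.45, 1.33 and 1.89 (adjusted p = 0.0271, 0.00712 and 0.00349). Those of Hist1h4h and Rmrp did not pass in DESeq2 (adjusted p = 0.12 and 0.0503). Of 29 mitochondrially encoded RNAs 7 were higher and 0 lower (15 and 1 at an unadjusted p under 0.05, 3 and 0 in DESeq2), with a median difference of 0.46 that turned to -0.027 with size factors from repeats.

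**Figure D4:**
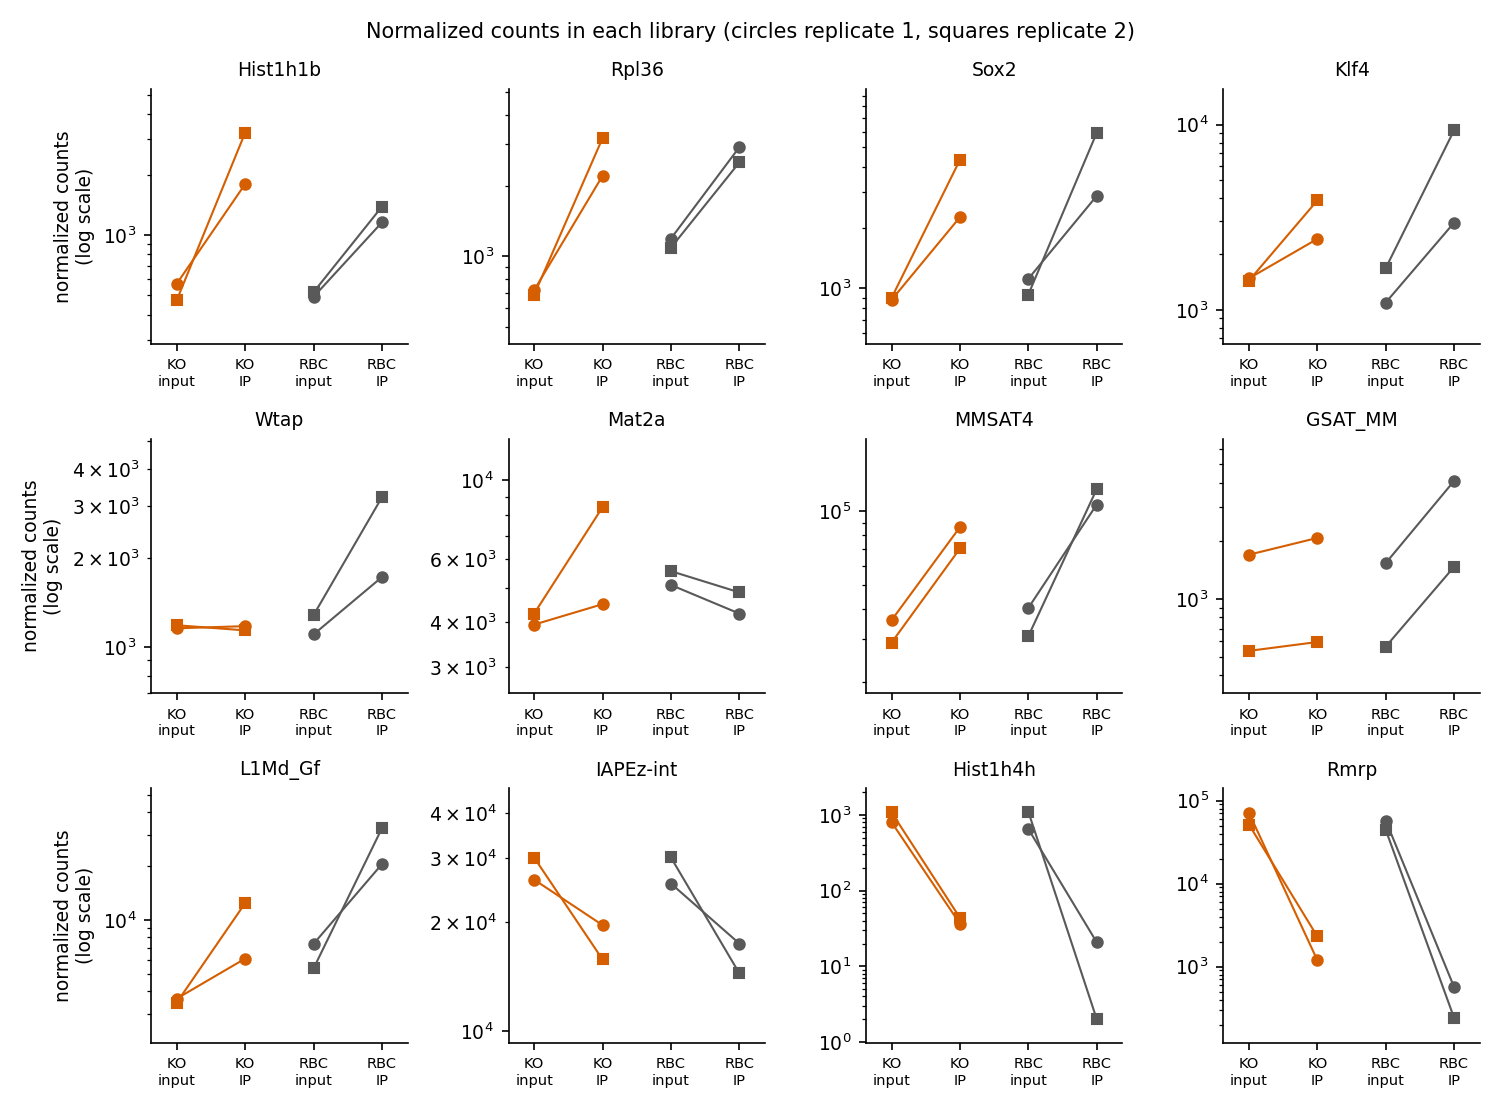
Normalized counts (y axis, log scale) in each input and IP library of Mettl3 KO (orange) and RBC (grey) for 12 of the genes and repeats described here, with circles for replicate 1, squares for replicate 2 and a line joining each pair. Hist1h1b and Sox2 are higher in the IP in both pairs of both lines, Wtap is level in Mettl3 KO and higher in the IP in RBC, and Hist1h4h and Rmrp are lower in the IP in all pairs.

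The extremes of the difference were taken from the features enriched in RBC and ranked by the difference itself, so their values are a description without a test. The 6 with the largest fall were Gm7701, Prkcz2, Gm3695, Gm16074, ENSMUSG00000092062 and Gm44983, with differences from -2.11 to -1.74 in the paired model. Prkcz2, a processed pseudogene, had 58.1 and 75.5 normalized counts in the Mettl3 KO inputs and 63.8 and 109 in its IPs, and 27.0 and 26.5 against 104 and 173 in RBC. Gm3695, also a processed pseudogene and within Cox16, had 36.3 and 46.6 against 19.5 and 29.1 in Mettl3 KO and 47.2 and 42.9 against 63.0 and 148 in RBC. For Prkcz2 the Mettl3 KO groups overlapped, and for Gm3695 its IPs lay below its inputs. The 6 with the largest rise were BC002163, Rpl19-ps11, Gm12999, Hist1h1d, Tceal7 and Hist1h1b, and BC002163 was higher than in RBC by 1.23 ± 0.32, Rpl19-ps11 by 1.07 and Tceal7 by 0.78.

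Mat2a, the METTL16 substrate whose sites are printed above, had higher counts in both IPs than in both inputs of Mettl3 KO. It had 3941 and 4233 normalized counts in the Mettl3 KO inputs and 4496 and 8411 in the IPs (0.66 ± 0.27, adjusted p = 0.143). In RBC it had 5089 and 5565 in the inputs and 4232 and 4852 in the IPs (-0.23 ± 0.27, adjusted p = 0.526). Neither value passed by itself, and the groups of each line did not overlap. The log2 ratios of the pairs were 0.19 and 0.99 in Mettl3 KO, -0.27 and -0.20 in RBC, -0.21 and 0.0038 in Mettl14 KO and -0.23 and -0.026 in WT26. Rnu2-10, a U2 snRNA gene and the other tested RNA methylated by another enzyme, differed between the IPs and gave no call, with 159.9 and 136 normalized counts in the inputs and 198 and 10.4 in the IPs. For Mat2a the difference from RBC was 0.82 ± 0.18 (adjusted p = 0.00993) and that from Mettl14 KO 0.69 (adjusted p = 0.0294), and with size factors from repeats the former was 0.32 (adjusted p = 0.216).

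Each knockout targets the gene of a subunit of the same heterodimer, so the Mettl3 KO was also set beside the Mettl14 KO. For the Mettl14 KO clone the paper describes a frameshift that gives a truncated protein. In the model of groups 0 features had higher and 0 lower enrichment (0.0% each) in edgeR, with 573 at an unadjusted p under 0.05, and DESeq2 called 0. In the paired model 607 were higher in Mettl3 KO (2.68%) and 1027 lower (4.54%), whereas Mettl14 KO differed from WT26, its own control, in 6 features higher and 6 lower (0.0265% each), and the controls RBC and WT26 differed in 6 (0.0265%) and 2 (0.00884%). The difference from Mettl14 KO was -0.87 for Klf4 (adjusted p = 0.00848), -0.93 for Wtap (adjusted p = 0.015) and -1.03 for L1Md_A (adjusted p = 0.00552). GSAT_MM did not pass, at -0.11 (adjusted p = 0.773), and it was among the features lower in Mettl14 KO than in WT26, at -1.56 (adjusted p = 0.000292). The clones come from different parent lines, so that the knockout and the line cannot be told apart in this comparison.

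In nuclear RNA-seq of Mettl3 KO against RBC, 17021 genes were tested with edgeR and 1047 (6.15%) were higher and 1265 (7.43%) lower. Of the genes enriched in the Mettl3 KO IP 513 were tested there, and 7 were higher and 47 lower, with a median log2 fold change of -0.30 against -0.0016 for all genes. Of the depleted genes 218 were tested, with 11 higher, 5 lower and a median of 0.13. Rpl36 RNA was at a log2 fold change of -0.89 (adjusted p = 2.38e-09), Klf4 RNA at 0.58 (adjusted p = 3.95e-08) and Mat2a RNA at -0.32 (adjusted p = 7.89e-05). For these 3 genes the difference in RNA level and the difference in enrichment had opposite signs, whereas for Zfp36l1, Gbx2 and Tug1, lower in both, the signs were the same. Of 1600 tested genes with lower enrichment than in RBC in the paired model, 67 were higher and 66 lower in RNA-seq, with a median of 0.075. Of 877 tested genes with higher enrichment than in RBC, 14 were higher and 61 lower in RNA-seq, with a median of -0.24. Whether the RNA level played a part in the enrichment was not tested.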

How the data were processed

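MeRIP used nuclear RNA that was treated with DNase, sonicated and split into an input and an anti-m6A IP, and 3 MeRIP reactions were combined into 1 biological replicate. The input and IP with the same number thus come from 1 material. Libraries were rRNA-depleted and paired-end. Per the labels and the study's methods the authors ran cutadapt 1.8.1 for trimming and STAR 2.6.0c for alignment to GRCm38 and counted genes and RepeatMasker subfamilies with TEtranscripts, which shares reads with several positions among them. The deposited values are raw counts per feature, and the strand setting of the counting was not given in the sources used here. An m6A spike-in and a beads-only control were not analysed here.

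From the counts, a quasi-likelihood model (edgeR 4.0.16, R 4.3.3) with 1 term for each of 8 groups was fitted to 16 libraries, with DESeq2 1.42.0 size factors over all features, after edgeR's default filter kept 22621 of 49090 features. A feature was called at a Benjamini-Hochberg adjusted p of at most 0.05 and, within a line, a log2 fold change beyond 1 either way. Differences between lines were called on the adjusted p alone. Log2 ratios of single pairs used a pseudocount of 1. A further fit added the pair as a block. Its pairing comes from the split material, and the deviations of input and IP of 1 line correlated at r of 0.195 to 0.280. The paired model with a term for IP by replicate number, shared by all lines, was chosen after seeing the data. Scripts were tested on simulated data. RNA-seq was fitted in the same way. Transcripts came from GENCODE M21 (47224 of 47937 genes matched).

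The members and lists were chosen with earlier results of these data known. Named features are those the study names for MeRIP, the 12 most enriched and 8 most depleted genes and the 4 most depleted subfamilies averaging 50 or more normalized counts with no overlap of input and IP, the 6 with the largest fall and the 6 with the largest rise among features enriched in RBC, up to 4 called members per list and direction, and the genes with printed sites. Other list members named were chosen after their values were seen. Nothing in the sources says that replicates are separate cultures beyond the word biological, so p-values measure the spread between these libraries.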

Additional observations from a re-analysis of the deposited data

Results flagged for a closer look

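For 3 features flagged here, both pairs of Mettl3 KO moved one way and both pairs of RBC the other. How many other features did so was not counted. For Gm3695 the mean log2 ratio of IP to input was lower in Mettl3 KO than in RBC, a difference of -1.845 (paired model -1.86, with no test, since the feature was picked by this difference). For Mat2a it was higher by 0.8221 (paired model 0.82, with no test here, since it was flagged by this difference too). For MERVL-int, the internal part of an endogenous retrovirus transcribed in the early embryo, the difference was -0.8365. The paired model gave -0.84, with no test, since this feature too was picked after its values were seen. The model of groups called none of the 3 differences in edgeR, where 787 features had an unadjusted p under 0.05, and DESeq2 called 0.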

How the results depend on the processing

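Counts of calls depended on the model. For features enriched and depleted in Mettl3 KO, then repeat subfamilies enriched and depleted, DESeq2 gave 1117, 728, 4 and 84, no filter on low counts 1565, 1085, 5 and 159, a fit of the 4 libraries alone 1446, 912, 4 and 109, and scaling by library size 2525, 266, 8 and 5. Size factors from repeats gave 80 depleted features and 5 and 1 subfamilies, TMM 3 and 15 subfamilies, the block of input and IP pairs 0 and 9, and adjustment over the subfamilies alone 0 and 0. Without 1 of the 4 libraries the enriched features numbered 11 to 709, the depleted 32 to 284, and the subfamilies 0 to 3 and 0 to 19, with the lone library assumed to vary like other groups. In RBC the counts were 5840 enriched and 1052 depleted by library size, 10273 and 412 with size factors from repeats, 1635 depleted at a minimum of 10 counts, and 1 to 4186 and 67 to 3819 without 1 library. The difference from RBC gave 19 features higher and 6 lower and that from Mettl14 KO 14 and 2 with no filter, and 0 without any 1 library in edgeR.

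The summed satellites passed at 1.0521 in DESeq2 and with no filter, 1.0926 in the 4 libraries alone and 1.4299 by library size, and ranged from 0.8309 to 1.2477 without 1 library. Without 1 library the other class sums ranged from -1.0947 to -0.4693 for SINEs, -0.2551 to -0.0603 for LINEs, -0.7830 to -0.3391 for LTR elements and -1.3260 to -0.6675 for DNA transposons. The LINE sum turned to 0.2215 by library size and 0.5749 with size factors from repeats, where the LTR sum was 0.161. By library size Mettl3 turned to 0.1355 and SYNREP_MM to 0.0625, and with size factors from repeats Mettl3 to 0.4849, Mettl14 to 0.3143, IAPEz-int to 0.0495 and SYNREP_MM to 0.3171. Without 1 library SYNREP_MM ranged from -1.0979 to 0.1803 and GSAT_MM from -0.9055 to 1.3154, with -0.3499 without input 2. The difference from RBC ranged from -1.6438 to 0.0208 for Klf4, -1.6191 to 0.1866 for Klf2 and -0.7517 to 0.4041 for Sox2, each turned without RBC IP 2, and Sox2 also to 0.1924 without Mettl3 KO IP 1. The causes were not tested, beyond the shift that each scaling adds to all ratios.

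The block of input and IP pairs, planned, left 88 of 99 named values on their side of the threshold and took 11 calls away, each given in the report. The paired model, which adds a term for IP by replicate number to this pairing and was chosen after seeing the data, gave 2078 enriched and 2118 depleted features, 5 and 252 subfamilies, 3946 depleted features in RBC, 1265 higher and 1714 lower than RBC, 607 and 1027 against Mettl14 KO, and a satellite sum of 1.0451. In the same order this pairing gave 1737, 1532, 5, 226, 886, 1243, 519, 824 and 1.0451 in DESeq2, with RBC within 1.5 times. With TMM this pairing gave 2313, 1872, 5, 196, 3859, 1383, 1426, 685, 789 and 1.1004. Without the Mettl14 KO libraries this pairing gave 2093, 2056, 5, 240, 3897, 1065, 1443 and 1.0523. Without WT26 this pairing gave 2063, 2019, 6, 243, 3823, 1021, 1429, 282, 670 and 1.0529. By library size this pairing gave 4165 enriched and 1002 depleted features, 14 and 41 subfamilies, 6793 enriched in RBC, 529 and 2044 against RBC, 245 and 1021 against Mettl14 KO, a LINE sum of 0.221, a satellite sum of 1.4258 and Mettl3 at 0.1374. With size factors from repeats this pairing gave 7311 enriched features, 44 and 12 subfamilies, 12740 and 724 in RBC, 82 and 6212 against RBC, 87 and 5055 against Mettl14 KO, a LINE sum of 0.5632, an LTR sum of 0.1598, a satellite sum of 1.768, Mettl3 at 0.4869, Mettl14 at 0.2861, IAPEz-int at 0.0469 and SYNREP_MM at 0.3244. RNA-seq counts were 917 to 1096 higher and 1149 to 1281 lower without 1 library.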

Other observations

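Maternally expressed RNAs of the imprinted Dlk1-Dio3 region were nearly silent in the Mettl3 KO clone. Meg3 had 24.5 and 14.5 normalized counts in the Mettl3 KO inputs and 6051 and 5201 in the RBC inputs. Rian had 42.7 and 20.9 against 6081 and 6493, and Mirg 13.6 and 3.21 against 1440.1 and 1464. Both inputs of Mettl3 KO were far below both inputs of RBC for all 3 RNAs.

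The satellite SYNREP_MM had 10842 and 3136 normalized counts in the Mettl14 KO inputs and 355 and 78.0 in its IPs, against 123 and 99.6 in the Mettl3 KO inputs. Its enrichment differed between Mettl3 KO and Mettl14 KO by 4.77 in the paired model (adjusted p = 1.51e-11).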
